A study of Mus musculus with 7 samples.

Results

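The genes described here are the 10 that encode the starting machinery of autophagy, 4 for the Ulk kinase complex (Ulk1, Ulk2, Rb1cc1 and Atg13) and 6 for the class III phosphatidylinositol 3-kinase complex around Beclin 1 (Becn1, Pik3c3, Pik3r4, Atg14, Uvrag and Ambra1). They were listed by gene name, with earlier results of these data known, and every probe set annotated to a single one of them was taken, which gave 18 probe sets for 10 of the 12393 genes named by the array. RNA came from CD11c-positive cells pulled by magnetic sorting (MACS) from spleens of mice at day 7 after an allogeneic hematopoietic stem cell transplant (allo-HSCT). There were 3 arrays with the genotype Atg16L1 hypomorphic and 4 with the genotype WT, all on C57BL/6J, and the age is given as 9 weeks in the sample protocol and 8 weeks in the series design. A hypomorph keeps part of a gene's function. The labels name neither the allele nor whether the recipient, the donor or both carried it, and they do not tie each array to a separate animal, so p-values below describe only the spread between these 7 samples, which may be technical.

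Autophagy delivers cytoplasm to lysosomes inside a double membrane. It begins when the Ulk1 or Ulk2 kinase, held together with Atg13 and the scaffold FIP200 (the product of Rb1cc1), is released from inhibition by the nutrient sensor mTORC1 and phosphorylates proteins of the second complex. In that complex the lipid kinase Vps34 (Pik3c3), anchored by Vps15 (Pik3r4) and held by Beclin 1, makes phosphatidylinositol 3-phosphate on the growing membrane, and this lipid recruits the proteins that bring Atg16l1 and the LC3 conjugation machinery. Atg14 directs the complex to forming autophagosomes, Uvrag takes the place of Atg14 in an endosomal form of it, and Ambra1 binds Beclin 1 and promotes its activity. Both complexes are switched mainly by phosphorylation and binding partners, which transcript levels do not show. In dendritic cells autophagy feeds antigen into class II presentation and restrains inflammatory signalling.

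Promoter sequences are shown for Ulk1 and Uvrag, the members with the largest changes, and for Atg14, whose promoter held a match to the searched motif. Each run covers 250 bases before and 50 bases after the annotated start, 5′ to 3′ on the gene's strand, from RefSeq on GRCm38.p6. A promoter was found for 7 of the 10 genes. The motif was CACGTG, the E-box core of the sites read by TFEB-type factors, searched on both strands, and capitals mark it. Ulk1 lies on the minus strand at chr5:110810032-110810331, Uvrag on the minus strand at chr7:99141095-99141394 and Atg14 on the minus strand at chr14:47568385-47568684.
Ulk1: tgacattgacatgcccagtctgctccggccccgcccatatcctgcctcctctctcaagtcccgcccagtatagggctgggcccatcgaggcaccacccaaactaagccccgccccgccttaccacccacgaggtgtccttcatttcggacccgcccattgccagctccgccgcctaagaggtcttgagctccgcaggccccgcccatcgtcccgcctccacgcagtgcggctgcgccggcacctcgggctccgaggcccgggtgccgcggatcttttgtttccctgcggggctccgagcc
Uvrag: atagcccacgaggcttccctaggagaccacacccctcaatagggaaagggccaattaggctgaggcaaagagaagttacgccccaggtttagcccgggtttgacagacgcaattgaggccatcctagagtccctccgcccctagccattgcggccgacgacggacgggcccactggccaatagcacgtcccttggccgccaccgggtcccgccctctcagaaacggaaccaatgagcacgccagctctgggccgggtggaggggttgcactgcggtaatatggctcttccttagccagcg
Atg14: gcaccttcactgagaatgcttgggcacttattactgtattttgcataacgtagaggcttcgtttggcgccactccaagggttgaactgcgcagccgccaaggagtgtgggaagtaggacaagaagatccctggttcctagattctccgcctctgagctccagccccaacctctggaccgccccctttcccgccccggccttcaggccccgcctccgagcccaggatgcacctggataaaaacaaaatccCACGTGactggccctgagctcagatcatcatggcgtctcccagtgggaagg

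The letters CACGTG were found in 1 of the 7 promoters, that of Atg14, where they begin 1 base before the start. The longer form TCACGTG, which contains the first, was met there as well, on the opposite strand. Of 32851 promoters of the same length, 7.15% held CACGTG and 3.77% held TCACGTG. The Ulk1 promoter was 68% G and C, that of Uvrag 61.7% and that of Atg14 57.7%, and the median of all promoters was 52.7%. These letters do not occur in the printed windows of Ulk1 and Uvrag.

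The signals are the log2 values that the authors deposited, 1 per probe set and array, and a difference of 1 is a doubling of signal. All array medians lay between 5.46 and 5.53, and each array correlated with the remaining arrays at a mean r of 0.990 to 0.993. Atg16l1 itself was at 6.86, 6.76 and 6.94 in hypomorph arrays, against 7.42, 7.33, 7.26 and 7.20 in WT arrays. The groups did not overlap, and the hypomorph was lower (log2 change -0.45, limma adjusted p = 0.462). The labels state no direction for this transcript. The CD11c gene Itgax, the sort's own marker, was at 7.98 to 8.48 in hypomorph arrays and 7.98 to 8.33 in WT arrays. A list of 9 dendritic cell genes, Itgax among them, had a summed linear signal of 8010 to 11000 in hypomorph arrays, against 7580 to 9180 in WT arrays. This sum is weighted to the brightest of them, H2-Aa, Cd74 and H2-Ab1 of class II presentation (mean log2 12.02, 11.06 and 10.17). It is thus no count of dendritic cells. The summed signals of other cell types are given next. Endothelial and stromal markers (7 genes) summed to 218 to 236 in hypomorph arrays, against 155 to 192 in WT arrays, without overlap. B cell markers (4 measured) summed to 148 to 331 in hypomorph arrays, against 298 to 342 in WT arrays. T cell markers (5 measured) summed to 2440 to 3060 in hypomorph arrays, against 1950 to 3670 in WT arrays, NK cell markers (4 measured) to 1440 to 1880 in hypomorph arrays, against 1330 to 2050 in WT arrays, and monocyte markers (5 measured) to 14500 to 19100 in hypomorph arrays, against 15100 to 19500 in WT arrays. Red pulp macrophage markers (10 genes) summed to 34400 to 41100 in hypomorph arrays, against 23000 to 40700 in WT arrays, and 10 of 10 had a higher mean in the hypomorph. Neutrophil markers (8 genes) summed to 39700 to 68200 in hypomorph arrays, against 61800 to 68900 in WT arrays, and 0 of 8 had a higher mean in the hypomorph. Erythroid markers (6 measured) summed to 542 to 4380 in hypomorph arrays, against 2250 to 3740 in WT arrays. Basophil and mast cell markers (6) summed to 428 to 510 in hypomorph arrays, against 781 to 1560 in WT arrays, without overlap, and 0 of 6 had a higher hypomorph mean. Pancreatic acinar markers (10 measured) summed to 748 to 1580 in hypomorph arrays, against 812 to 5380 in WT arrays. Their median log2 change was -2.03, and 1 of 10 had a higher hypomorph mean. That was Cela1 (0.30), the brightest of them on hypomorph arrays, to which the sums there are weighted. Higher hypomorph means were also found for 5 of 9 dendritic cell, 6 of 7 endothelial and stromal and 1 of 4 B cell markers. The counts were 4 of 5 for T cell, 3 of 4 for NK cell, 1 of 5 for monocyte and 1 of 6 for erythroid markers. In such mixed samples, fewer cells of a type and less RNA per cell cannot be told apart. The part of these cell types in the results below was not tested beyond the fits named beside each.

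No member passed the test. With limma fitted to the 22625 probe sets together, 0 of the 18 member probe sets had an adjusted p under 0.05, and so did 0 of all probe sets (0%). Ulk1 and Uvrag were the only members with an unadjusted p under 0.05 in that fit, both higher in the hypomorph. That is 2 of 18 probe sets (11.1%), where 7.69% of all probe sets had such a p in either direction and 4.35% with the hypomorph higher. The count of 2 hangs on single arrays, being 0 without hypomorph replicate 1, WT replicate 2 or WT replicate 4, and 1 without hypomorph replicate 2 or 3. The hypomorph mean was higher for 11 of 18 probe sets (61.1%), against 50.7% of all probe sets. Groups did not overlap for 1 of 18 (5.56%), that of Ambra1, against 5.57% of all probe sets. The share without overlap is thus that of the whole array. Over the 10 genes, each taken by its probe set with the highest mean, the median log2 change was 0.07, beside 0.00199 over all probe sets.

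**Figure D1:**
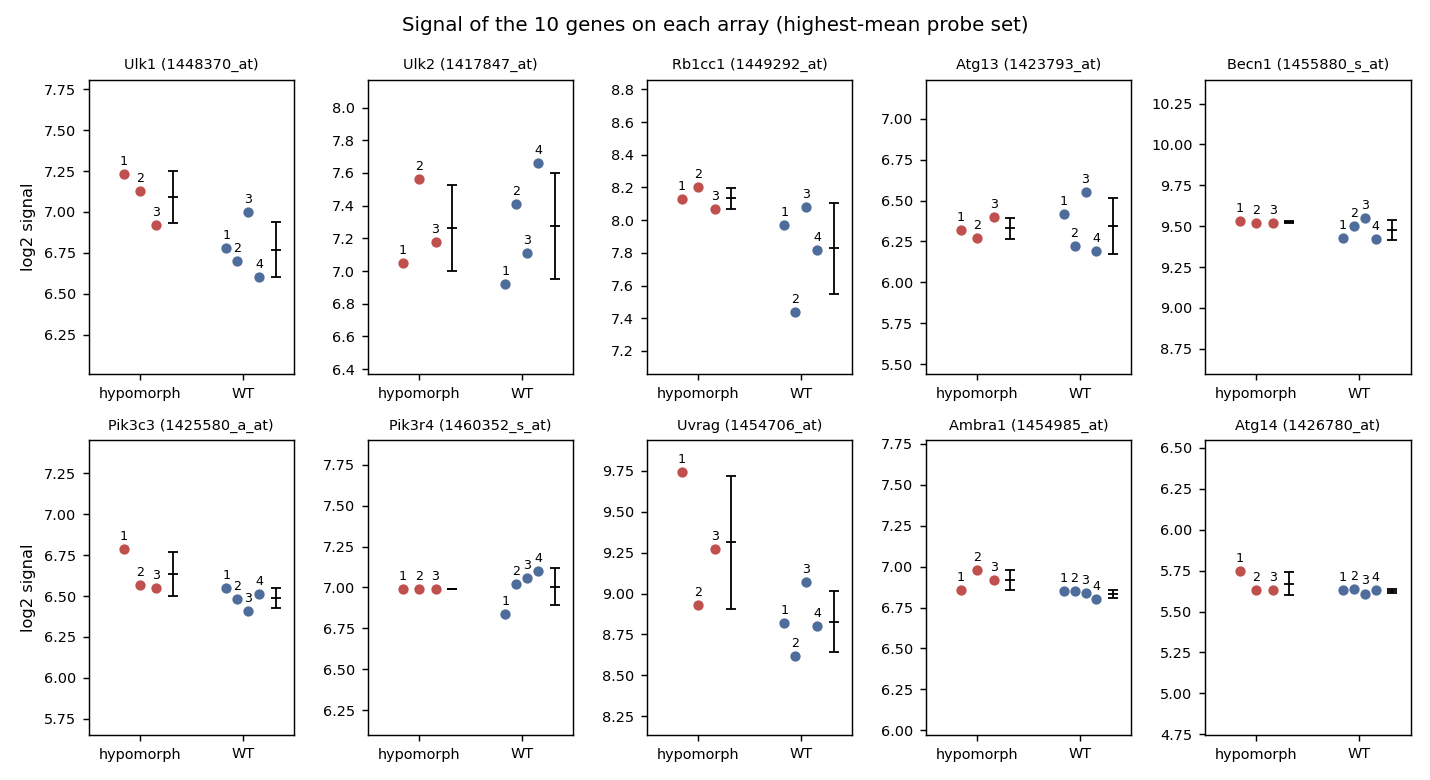
Log2 signal of the 10 genes on each array, hypomorph left and WT right, with the replicate number above each point and the mean and SD as a bar beside each group; every panel spans the same height. Uvrag has the widest spread among hypomorph arrays, Ulk2 among WT arrays, and Ambra1 alone has separate groups.

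Ulk1, the kinase that starts autophagy on nutrient shortage, had the clearest difference in the kinase complex. Its brighter probe set read 7.23, 7.13 and 6.92 in hypomorph arrays, against 6.78, 6.70, 7.00 and 6.60 in WT arrays. Hypomorph replicates 1 and 2 lay above every WT array, whereas replicate 3 was below WT replicate 3. The mean was 7.09 ± 0.159 (SD, n = 3) in hypomorph and 6.77 ± 0.168 (SD, n = 4) in WT, a log2 change of 0.32 or 1.25-fold (95% confidence interval 0.05 to 0.59). The limma p was 0.0257 unadjusted and 0.644 adjusted, and an exact permutation test (two-sided) of the array values gave p = 0.0857. The dimmer Ulk1 probe set, at 5.10, 4.93 and 4.88 in hypomorph arrays and 4.91, 4.59, 4.80 and 4.70 in WT arrays, gave a change of 0.22 (0 to 0.44). Both probe sets of Ulk1 thus had the same sign, and Ulk1 was the only gene among the 5 with several probe sets of which that was true. The dimmer one averaged 4.84, however, below the median level of 5.51 over all probe sets. In the other genes the differing signs turned on changes near 0, such as -0.04 for Rb1cc1 and -0.02 for Atg13. Single arrays left out moved its change between 0.25 and 0.41. Adding the acinar level to the fit gave 0.23 with an unadjusted p no longer under 0.05, whereas with the macrophage, dendritic cell and erythroid levels it was 0.38, 0.32 and 0.36 and the unadjusted p stayed under 0.05.

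Ulk2, the paralog that can stand in for Ulk1, differed more within the WT group than between groups. Its brightest probe set read 7.05, 7.56 and 7.18 in hypomorph arrays, against 6.92, 7.41, 7.11 and 7.66 in WT arrays. WT arrays spanned 0.74 on the log2 scale, the widest WT range of the 10 genes, and enclosed all hypomorph arrays. The change was -0.01 (95% confidence interval -0.47 to 0.44), and the other probe sets gave -0.11 (-0.52 to 0.31) and 0.01 (-0.37 to 0.40). WT replicate 4 was the highest and WT replicate 1 the lowest WT array in all 3 probe sets, at 6.90 and 6.07 in the second and 6.50 and 5.80 in the third. On the same arrays the median of the pancreatic acinar markers was highest in WT replicate 4, at 1.60 above the WT mean, and among WT arrays lowest in replicate 1, at -1.74. Hypomorph arrays were at -2.58, -2.33 and -0.73 on that acinar scale, and the hypomorph array at -2.33, replicate 2, had the second highest Ulk2 signal of all arrays. The red pulp macrophage median was 0.42, 0.16 and 0.29 in hypomorph arrays, against -0.52, 0.22, -0.17 and 0.46 in WT arrays. A fit with the acinar level as a term gave a Ulk2 change of 0.19, and one with the macrophage level gave -0.19, so its sign was not settled by these arrays.

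Rb1cc1 encodes the large scaffold FIP200 on which the kinase complex assembles. Its brighter probe set read 8.13, 8.20 and 8.07 in hypomorph arrays, against 7.97, 7.44, 8.08 and 7.82 in WT arrays. Hypomorph arrays lay close together and WT replicate 2 stood lowest, while WT replicate 3 was above hypomorph replicate 3. The change was 0.30 (95% confidence interval -0.04 to 0.65, limma adjusted p = 0.648). The other probe set of Rb1cc1, at 7.12 ± 0.025 (SD, n = 3) in hypomorph and 7.16 ± 0.112 (SD, n = 4) in WT, gave -0.04 (-0.22 to 0.14), so the pair disagreed. Without WT replicate 2 the change of the brighter probe set was 0.17. Rb1cc1 is on chromosome 1, as is Atg16l1, with 458 protein-coding genes between them in RefSeq's order.

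Atg13, the adaptor that mTORC1 phosphorylates together with Ulk1, read 6.32, 6.27 and 6.40 in hypomorph arrays, against 6.42, 6.22, 6.55 and 6.19 in WT arrays. The hypomorph arrays lay inside the WT range. The change was -0.02 (95% confidence interval -0.25 to 0.22), and the second probe set gave 0.12 (-0.11 to 0.35). Neither excluded 0, and the signs differed.

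**Figure D2:**
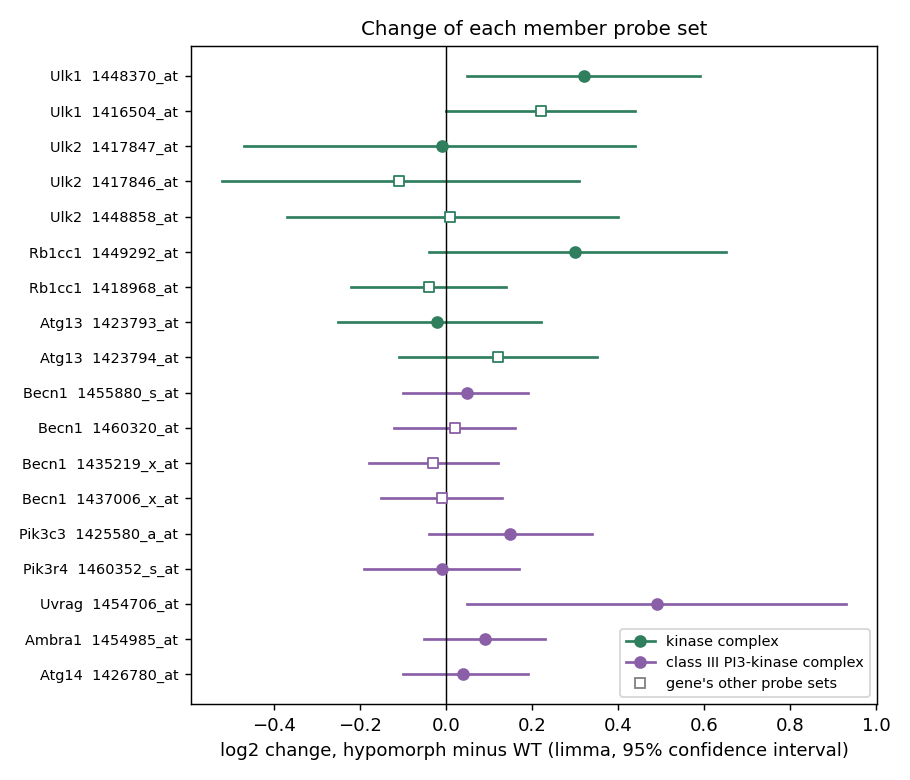
Log2 change, hypomorph minus WT, with its 95% confidence interval from limma for all 18 probe sets; filled circles are the probe set with the highest mean of a gene and open squares its others, green for the kinase complex and purple for the class III PI3-kinase complex. Only the filled circles of Ulk1 and Uvrag have an interval clear of 0, and 16 of 18 intervals include it.

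Beclin 1 transcripts differed little between arrays. The brightest Becn1 probe set read 9.53, 9.52 and 9.52 in hypomorph arrays, against 9.43, 9.50, 9.55 and 9.42 in WT arrays. The change was 0.05 with a 95% confidence interval of -0.10 to 0.19, and the next probe set gave 0.02 (-0.12 to 0.16). For these probe sets a change of more than 0.19 in either direction lies outside the intervals. The other probe sets of Becn1 gave -0.03 and -0.01, but they averaged 4.36 and 2.97 against a median level of 5.51 over all probe sets, so they carry little information on the gene.

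Pik3c3 (Vps34) read 6.79, 6.57 and 6.55 in hypomorph arrays, against 6.55, 6.48, 6.41 and 6.51 in WT arrays. Hypomorph replicate 1 stood above the rest, and hypomorph replicate 3 was level with WT replicate 1. The change was 0.15 (95% confidence interval -0.04 to 0.34, limma adjusted p = 0.661), and 0.08 without hypomorph replicate 1. Pik3r4 (Vps15) read 6.99 on each hypomorph array, against 6.84, 7.02, 7.06 and 7.10 in WT arrays, a change of -0.01 (-0.19 to 0.17). The deposited Pik3r4 values of the 3 hypomorph arrays were identical, as they were for 409 of all 22625 probe sets (1.81%), so an SD of 0 there does not measure biological spread.

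Uvrag, which steers Vps34 to endosomes and is named for a link to ultraviolet resistance, had the largest change of the 10 genes. It read 9.74, 8.93 and 9.27 in hypomorph arrays, against 8.82, 8.62, 9.07 and 8.80 in WT arrays. Hypomorph replicates 1 and 3 were above every WT array, and replicate 2 was below WT replicate 3. The mean was 9.32 ± 0.403 (SD, n = 3) in hypomorph and 8.83 ± 0.182 (SD, n = 4) in WT, a log2 change of 0.49 or 1.40-fold (95% confidence interval 0.05 to 0.93). The limma p was 0.0337 unadjusted and 0.644 adjusted, and the exact permutation test gave p = 0.0857. Without hypomorph replicate 1 the change was 0.28 (limma adjusted p = 0.827). Without hypomorph replicate 2 it was 0.68 (limma adjusted p = 0.174, the smallest of any member under any alternative). Itgax on hypomorph replicate 1, at 7.98, was the lowest of the hypomorph arrays. The same array had the highest sum of dendritic cell markers, 11000, whereas the other hypomorph arrays had 8010 and 8150, a sum weighted to H2-Aa, Cd74 and H2-Ab1. The dendritic cell level used in the fits was not this sum but the median log2 deviation of these markers from the WT mean. That median was 0.09, -0.13 and -0.05 on hypomorph arrays, against -0.22, 0.04, 0.07 and 0.05 on WT arrays. With this median as a covariate the change of Uvrag was 0.50. It was 0.51 with the acinar level, 0.48 with the red pulp macrophage level, 0.36 with the erythroid level and 0.59 without WT replicates 3 and 4, and under these 4 alternatives the unadjusted p was no longer under 0.05.

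Atg14, the subunit that competes with Uvrag for Beclin 1, read 5.75, 5.63 and 5.63 in hypomorph arrays, against 5.63, 5.64, 5.61 and 5.63 in WT arrays. Apart from hypomorph replicate 1 the arrays were nearly level. The change was 0.04 (95% confidence interval -0.10 to 0.19) and 0 without that array. The probe set averaged 5.64, just above the median of all probe sets, so a change in Atg14 could be understated.

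Ambra1 was the only member whose groups did not overlap. It read 6.86, 6.98 and 6.92 in hypomorph arrays, against 6.85, 6.85, 6.84 and 6.80 in WT arrays. The lowest hypomorph array was barely above the highest WT array, and the change was small, at 0.09 or 1.06-fold (95% confidence interval -0.05 to 0.23). The exact permutation test gave p = 0.0286, which is as small as 3 arrays against 4 allow, and the limma p was 0.179 unadjusted and 0.705 adjusted. Ambra1 and Atg13 are neighbours on chromosome 2, with the single protein-coding gene Harbi1 between them in RefSeq's order. Their changes, 0.09 and -0.02, both had intervals that include 0.

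**Figure D3:**
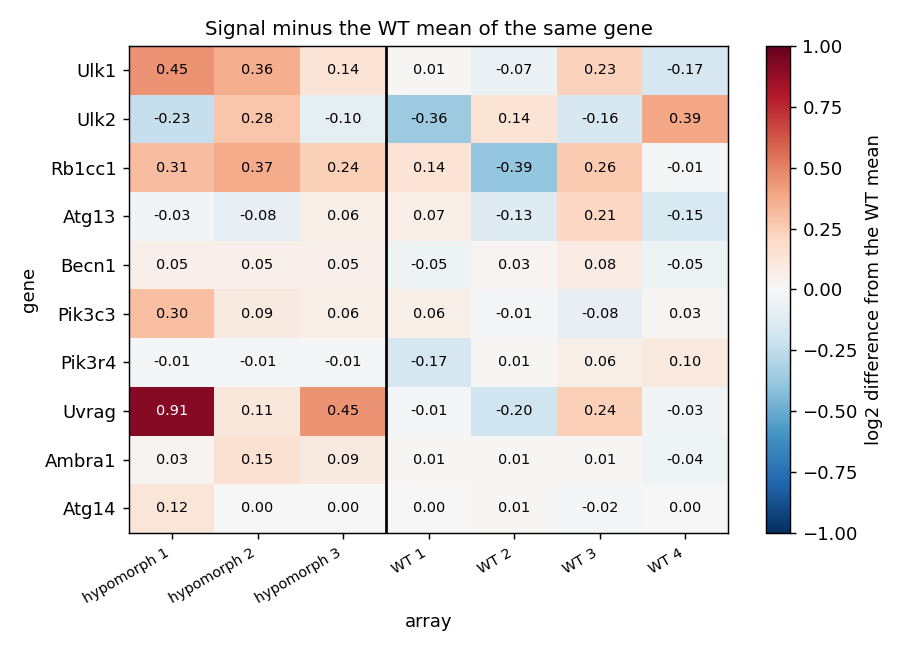
Log2 signal of each gene (rows, highest-mean probe set) on each array (columns, hypomorph left of the line and WT right of it) minus the WT mean of the same gene; red is above and blue below that mean. Uvrag in hypomorph replicate 1, at 0.91, is the largest deviation, and the Becn1 row runs from -0.05 to 0.08.

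From array to array the 10 genes did not follow one pattern. The median deviation of the members from the WT mean was 0.09, 0.10 and 0.06 on hypomorph arrays, against 0.01, 0.00, 0.07 and -0.02 on WT arrays. WT replicate 3 thus lay among the hypomorph arrays, and it was the highest WT array for 5 of 10 genes (Ulk1, Rb1cc1, Atg13, Becn1 and Uvrag). Hypomorph replicate 1 was the highest of its group for 5 of 10 genes and hypomorph replicate 3 for 1. The 4 genes of the kinase complex had medians of 0.14, 0.32 and 0.10 on hypomorph arrays, against 0.04, -0.10, 0.22 and -0.08 on WT arrays, and the 6 of the lipid kinase complex 0.09, 0.07 and 0.06 on hypomorph arrays, against 0.00, 0.01, 0.03 and -0.01 on WT arrays. For the lipid kinase complex the medians of the hypomorph arrays were all above those of the WT arrays, by a few hundredths of a log2 unit.

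The genes whose profile over the 7 arrays lay closest to that of Uvrag, the member with the widest spread (SD 0.372), were Gdap2, Vamp4 and Irf5. Likeness was the root mean square difference between profiles centred on their own means, 0.0764 for Gdap2, 0.0835 for Vamp4 and 0.0838 for Irf5 among 20378 other probe sets that name a gene. Irf5, a transcription factor of inflammatory myeloid cells, read 8.59, 7.72 and 8.24 in hypomorph arrays, against 7.66, 7.65, 7.85 and 7.66 in WT arrays. Vamp4, a SNARE of the trans-Golgi network and endosomes, read 7.30, 6.72 and 7.07 in hypomorph arrays, against 6.61, 6.40, 6.87 and 6.47 in WT arrays. Each shares with Uvrag a peak in hypomorph replicate 1 and a WT maximum in replicate 3. That follows from how they were picked, by likeness over these same 7 arrays.

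**Figure D4:**
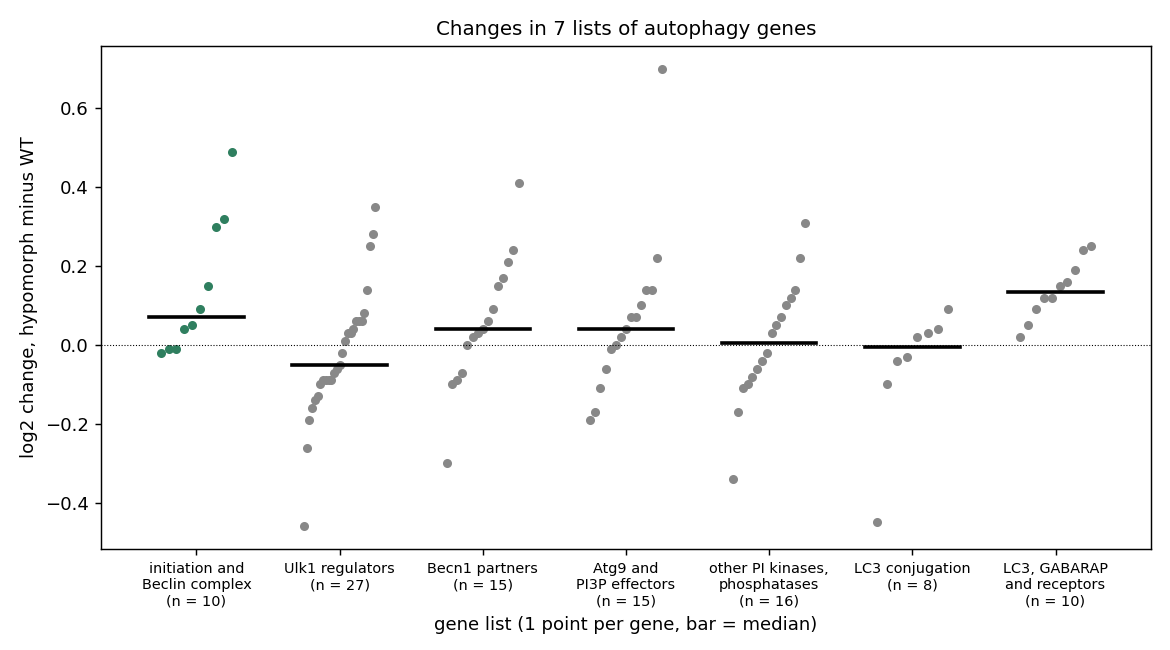
Log2 change, hypomorph minus WT, of each gene in 7 lists of autophagy genes, 1 point per gene (highest-mean probe set) with the median as a bar; the 10 members are in green. The members' median is 0.07, the medians of the other lists run from -0.05 to 0.14, and 0 genes of any list passed the adjusted threshold.

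The signalling genes upstream of the Ulk kinases split in sign. Of 27 measured regulators in the mTORC1, AMPK and nutrient group, 12 had a higher and 15 a lower mean in the hypomorph, with a median change of -0.05, and 0 passed the adjusted threshold. An unadjusted limma p under 0.05 was reached by 1 of the 27. Of all probe sets 7.69% had such a p in either direction and 4.35% with the hypomorph higher, so this count does not stand out. The gene was Ddit4, a stress-induced inhibitor of mTORC1, at 10.64, 10.78 and 10.95 in hypomorph arrays, against 10.28, 10.30, 10.65 and 10.51 in WT arrays. Its log2 change was 0.35 (limma adjusted p = 0.644), and hypomorph replicate 1 was just below WT replicate 3. Next in order of p were the AMPK subunit Prkab1 (log2 change -0.26) and the lysosomal GTPase Rraga (-0.46), whose groups overlapped. Mtor itself had a change of -0.05 and Tfeb of -0.02.

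Among 15 measured partners and regulators of Beclin 1, 10 had a higher and 5 a lower mean in the hypomorph, the median change was 0.04, and 0 had an unadjusted p under 0.05 in the limma fit, where 7.69% of all probe sets did. Bnip3, a BH3 protein of mitophagy that can displace Beclin 1 from Bcl-2, had a log2 change of 0.41 (limma adjusted p = 0.644). Vmp1, a membrane protein of autophagosome formation that binds Beclin 1, read 9.44, 9.41 and 9.65 in hypomorph arrays, against 9.40, 9.03, 9.40 and 9.23 in WT arrays. Its log2 change was 0.24, and the groups did not overlap, but the lowest hypomorph array (9.41) was barely above the highest WT arrays (9.40). Vmp1 was 1 of 15 genes without overlap in this list, where 5.57% of all probe sets had none. Nrbf2, a subunit of the Atg14 form of the complex, had a change of -0.10, and Bcl2 and Bcl2l1, whose products bind and hold Beclin 1, had changes of 0.00 and 0.03.

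Downstream of the lipid kinase, 9 of 15 measured Atg9 and phosphatidylinositol 3-phosphate effector genes had a higher mean in the hypomorph (median change 0.04). Wdfy3, a large protein that binds this lipid and delivers aggregates to autophagosomes, had the largest change, with 8.18, 8.05 and 8.47 in hypomorph arrays, against 6.95, 7.63, 7.48 and 8.07 in WT arrays. Its log2 change was 0.70 (limma adjusted p = 0.644), and WT replicate 4 overlapped the hypomorph arrays. Fig4, a phosphoinositide phosphatase, was lower on each hypomorph array than on any WT array (log2 change -0.17, limma adjusted p = 0.644), but only by 7.64 against 7.67 at the nearest. It was 1 of 15 genes without overlap in this list, where 5.57% of all probe sets had none. Atg101, a partner of Atg13 in the Ulk complex that was listed here, had a change of -0.19 (limma adjusted p = 0.661). Of 16 other phosphatidylinositol kinases and phosphatases, 8 were higher and 8 lower in mean, with a median of 0.00. Of these the smallest p were those of the 3-phosphatase Mtm1 (log2 change -0.34), the class I regulatory subunit Pik3r1 (0.31) and the phosphatase Inpp4a (0.22).

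The genes that act after initiation differed in the same small range. Of 8 measured LC3 conjugation genes, 4 had a higher and 4 a lower mean (median -0.01), with Atg16l1 at -0.45, Atg5 at 0.09 and Atg10 at -0.10. Of 10 measured LC3, GABARAP and cargo receptor genes, 10 had a higher mean in the hypomorph (median 0.14), and those with the smallest p were Sqstm1 (0.25), Gabarapl1 (0.24) and Nbr1 (0.15). None of them passed the adjusted threshold, and whether this list differs from the initiation genes was not tested.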

How the data were processed

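Total RNA (100 ng) of CD11c-positive spleen cells was labelled and hybridized to an Affymetrix Mouse430A array, 1 per sample, per the labels' protocols. The authors deposited log2 values per probe set, made with Affymetrix Power Tools per the submitters' processing notes. The version, summary method and between-array scaling are not stated in the labels used here. Of 22690 probe sets, 64 controls and 1 without values were left out. Names came from the platform annotation, updated by Entrez identifier from RefSeq's GRCm38.p6 gene table (20350 of 20379 single-gene probe sets matched).

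Hypomorph was compared with WT by limma 3.58.1 under R 4.3.3 (group means, eBayes, no block), with Benjamini-Hochberg adjustment over 22625 probe sets. The step was run on simulated arrays with independent normal noise, to check that fitted changes matched the planted ones on average. How often it would detect changes as small as those of the members is not given here. Members also had an exact two-sided permutation test over all 35 ways to divide the arrays into 3 and 4. Precision is limited by having 7 arrays.

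Every member was named with every probe set, then up to 3 genes of smallest p in each other list, the 3 genes most like the widest-varying member, and Atg16l1. Mtor, Tfeb, Bcl2, Bcl2l1 and the genes in the closing observations were added after their values were seen. Members and lists were chosen with earlier results of these data known. Alternatives covered array scaling, the variance model, array weights, a replicate block, an added 32 on the linear scale, a low-signal filter, gene means and each array left out. Marker levels as covariates and the removal of 2 WT arrays were added after seeing the data. A marker level was the median log2 deviation of a list's markers from the WT mean.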

Additional observations from a re-analysis of the deposited data

Results flagged for a closer look

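The WT group was examined for 39 probe sets. They were those of the members, Atg16l1, the 3 genes of smallest p per other list and those most like Uvrag. Other genes named in the text were not examined. Of the 39, 3 had 1 WT array far from the other WT arrays, by Dixon's gap over range at its 95% critical value for 4 samples. Chance flags about 1 in 20 groups. For Ambra1, WT replicate 4 read 6.80 where the nearest other WT array read 6.84 (gap over range 0.866). For the cargo receptor Nbr1, WT replicate 2 read 8.77 and the nearest other 8.90 (0.932). For Irf5, WT replicate 3 read 7.85 and the nearest other 7.66 (0.922). Groups of 3 were not examined in this way.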

How the results depend on the processing

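Across 20 alternatives, 5 of them chosen after seeing the data, 0 member probe sets reached an adjusted p of 0.05 in any fit that tests probe sets, and Ulk1, Uvrag, Rb1cc1, Becn1, Pik3c3 and Ambra1 kept a positive change in all of them. Ulk1 ran from 0.23 to 0.41 and Uvrag from 0.28 to 0.68. Of the 18 member probe sets, those with an unadjusted p under 0.05 numbered 1 with the replicate block, with the acinar level and with the erythroid level, 4 with the red pulp macrophage level, and 0 to 3 with single arrays left out. The members' median change was 0.10 with the erythroid level. Over all probe sets, an adjusted p under 0.05 was reached by 5 with median centring, with variance trend and robust settings and with low signal left out, by 3 with array weights, and by 0 to 2 with single arrays left out. Probe sets with an unadjusted p under 0.05 numbered 1057 with low signal left out, where fewer were tested, and 1095 without hypomorph replicate 1 to 2989 without hypomorph replicate 2.

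Changes near 0 turned sign. Ulk2 was at 0.12 with the replicate block, 0.19 with the acinar level, 0.10 without WT replicates 3 and 4, 0.10 with the erythroid level, and -0.16 to 0.12 with single arrays left out. Atg13 was at 0.05 with gene means, 0.01 without WT replicates 3 and 4, 0.06 with the macrophage level, and -0.07 to 0.05 with single arrays left out. Pik3r4 was at 0.02 with the replicate block, 0.09 with the acinar level, 0.07 without WT replicates 3 and 4, and -0.07 to 0.02 with single arrays left out.

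List medians moved as follows. The Ulk1 regulators were at -0.03 with the replicate block and the erythroid level, -0.02 with gene means and the macrophage level, 0.02 with the acinar level, and -0.06 to -0.01 with single arrays left out. The Atg9 and lipid effectors were at -0.02 with the replicate block, 0.00 with the acinar level, -0.01 without WT replicates 3 and 4, 0.09 with the macrophage level, 0.01 with the dendritic cell level, and -0.02 to 0.10 with single arrays left out. The other lipid kinases and phosphatases were at 0.05 without WT replicates 3 and 4. LC3 conjugation was at -0.05 with gene means, -0.07 with the macrophage level and -0.06 to 0.03 with single arrays left out, and LC3 with receptors at 0.20 with the acinar level. The cause of these moves was not tested.

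The labels do not say whether the replicate numbers pair the arrays, and the values do not settle it. The deviations of same-numbered hypomorph and WT arrays correlated at 0.102, 0.098 and 0.339. Those of differently numbered arrays correlated at -0.256 (hypomorph replicate 3 with WT replicate 2) to 0.207 (hypomorph replicate 1 with WT replicate 2). The block used only the 6 arrays numbered 1 to 3. Probe sets near background, such as the dimmer Becn1 ones, limit what can be seen.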

Other observations

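Other genes of the nutrient signalling that governs the Ulk kinases also stayed below the threshold. The sestrins, which restrain mTORC1 under stress and amino acid shortage, had log2 changes of 0.25 (Sesn1), 0.28 (Sesn2) and -0.07 (Sesn3). The Ragulator subunits, which hold mTORC1 on lysosomes, had changes of -0.14 (Lamtor1), -0.10 (Lamtor2), 0.14 (Lamtor3), -0.06 (Lamtor4) and 0.01 (Lamtor5). The class I lipid kinase subunits Pik3ca, Pik3cd and Pik3cg, which act in growth factor and immune receptor signalling, had changes of 0.05, 0.03 and -0.06. All of these genes had an adjusted p above that of Ddit4 in the limma fit.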
